A study of Homo sapiens with 4 samples.

Results

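The genes described here are 7 human genes of a route that returns proteins from endosomes to the cell surface: CLIC1, CLIC2, CLIC3, CLIC4 and CLIC5 of the chloride intracellular channel (CLIC) family, and the small GTPases RAB25 and RAB11A. They were chosen by name with earlier results of these data known, and their values in knockdown against control libraries are therefore given as a description, with no test. Of the 7, 6 were found by Ensembl identifier among 36525 genes, and CLIC1 was not analysed here. RNA sequencing was done on LM2 cells, a lung metastatic derivative of the mesenchymal human breast cancer line MDA-MB-231. The control group had 2 libraries and the group with hnRNPM (a splicing regulator that binds RNA) knocked down had 2 libraries. All cells were grown in DMEM with serum, L-glutamine and antibiotics and were collected 48 h after plating. The labels call the silencing agent an shRNA in one field and an siRNA in another, and do not say what the control cells carried. Every library came from the same cell line, and the labels do not state whether each library had its own culture. Unless another setting is named, the p-values below set a difference against the spread between libraries alone, pooled over genes of similar level. A gene's own spread hardly enters them, and the pooled spread may be technical.

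CLIC proteins exist in a soluble form with a fold like that of glutathione S-transferases and in a membrane-associated form. CLIC3 is known to act with RAB25 in returning the fibronectin receptor, integrin α5β1, from late endosomes and lysosomes to the plasma membrane, and CLIC3 has been linked to recycling of the membrane protease MT1-MMP (gene MMP14) in breast cancer cells. RAB11A, and its relatives RAB11B and RAB25, direct vesicles from the recycling endosome to the surface through effectors of the RAB11FIP family.

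The windows before the starts of CLIC3, RAB25 and RAB11A are shown first, because these genes had, in order, the largest difference, almost no reads and a smaller difference. Each holds the 250 bases before the RefSeq start, 5′ to 3′ on the gene's strand, in build GRCh38.p14: CLIC3 at chr9:136996569-136996818 on the minus strand, RAB25 at chr1:156060910-156061159 on the plus strand and RAB11A at chr15:65869241-65869490 on the plus strand. Capitals mark a GC box (GGGCGG, or CCGCCC on the other strand) or an E-box (CACCTG, or CAGGTG on the other strand).
CLIC3: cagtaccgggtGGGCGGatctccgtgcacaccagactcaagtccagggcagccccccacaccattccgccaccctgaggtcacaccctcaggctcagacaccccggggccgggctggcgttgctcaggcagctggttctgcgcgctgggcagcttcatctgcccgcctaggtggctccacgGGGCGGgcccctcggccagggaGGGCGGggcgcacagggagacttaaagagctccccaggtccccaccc
RAB25: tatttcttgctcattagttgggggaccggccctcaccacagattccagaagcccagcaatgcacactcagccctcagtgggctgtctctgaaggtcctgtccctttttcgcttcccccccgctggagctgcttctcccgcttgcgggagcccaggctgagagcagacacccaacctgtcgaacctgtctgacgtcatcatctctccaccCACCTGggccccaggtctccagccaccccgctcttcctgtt
RAB11A: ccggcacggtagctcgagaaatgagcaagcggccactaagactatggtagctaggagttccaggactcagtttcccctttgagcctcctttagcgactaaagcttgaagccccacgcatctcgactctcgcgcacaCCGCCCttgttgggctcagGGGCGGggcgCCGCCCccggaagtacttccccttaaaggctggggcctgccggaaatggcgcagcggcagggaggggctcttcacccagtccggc
The CLIC3 window had 3 GC boxes, beginning at -239, -69 and -47 relative to the start, where -1 is the base just before it. The RAB11A window also had 3 GC boxes, beginning at -114, -95 and -85. The RAB25 window had no GC box and 1 E-box, beginning at -41. No window of the 3 held the TATA box letters TATAAA on either strand. Among 34788 RefSeq windows of this length, 42.6% held a GC box, 24.3% held 2 or more, 17.5% held an E-box and 10.8% held a TATA box. The G and C content was 70.4% for CLIC3, 60.4% for RAB25 and 62.8% for RAB11A, against a median of 58.0% over all windows. These matches describe letters only, and no binding was measured.

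Values are RPKM, read numbers divided by the length of the transcript and by a total of reads, so levels of different genes can be set side by side. In the control libraries the order from high to low was CLIC4, RAB11A, CLIC3, CLIC5, CLIC2 and RAB25, and it was the same in the knockdown libraries. Within each group no library of one gene reached the level of the next gene in that order. CLIC3 lay just above CLIC5 in control cells and nearer to RAB11A in knockdown cells. In RNA from a whole culture, fewer cells that make a transcript and less of it per cell cannot be told apart.

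The knockdown and the cells were checked first. HNRNPM RNA was 88.6 and 102 RPKM in control cells and 11.5 and 12.95 RPKM in knockdown cells, a ratio of means of 7.80-fold lower. The mesenchymal markers VIM (562 to 760 RPKM over all 4 libraries) and AXL (202 to 232 RPKM) were high. The hormone receptor genes ESR1 (at most 0.0322 RPKM) and PGR (0 RPKM) were at or near 0. ERBB2, also listed in advance as low in these cells, was 7.19 to 9.13 RPKM and thus not near 0. EPCAM, listed likewise, was 0.910 to 1.25 RPKM. Of 6 epithelial markers, KRT8 and KRT18 alone reached 1 RPKM in every library, and the 6 summed to 10.7 and 12.1 RPKM in control cells and 19.9 and 22.1 RPKM in knockdown cells. CDH1 was 0.0774 and 0.0629 RPKM in control cells and 0.717 and 0.990 RPKM in knockdown cells. Of 3 fibroblast markers, DCN stayed at or below 0.0125 RPKM. LUM was 0.0238 and 0.0397 RPKM in control cells and 1.37 and 1.36 RPKM in knockdown cells. COL1A1 was 10.3 and 12.2 RPKM in control cells and 27.2 and 30.3 RPKM in knockdown cells. The 3 summed to 10.3 and 12.3 RPKM in control cells and 28.6 and 31.6 RPKM in knockdown cells, most of it COL1A1. The 4 blood cell markers summed to at most 0.0360 RPKM, and the 2 endothelial markers that were found summed to at most 0.0667 RPKM. The part of the epithelial and fibroblast markers in the values below was not tested. Low RPKM values fell on steps of whole reads if the total used for scaling was the same in replicates 1 and 2, 41.9 M in control cells and 29.7 M in knockdown cells. Within a group, replicate 2 was higher than replicate 1 for most genes, with a median log2 difference of -0.19 (replicate 1 minus 2) in control cells and -0.14 in knockdown cells. Values are therefore also given after median-ratio scaling, which sets the median gene of every library equal.

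CLIC3 had the largest difference of the 6 genes found. Its level was 0.512 and 0.548 RPKM in control cells and 8.21 and 8.56 RPKM in knockdown cells. The groups were far apart: the lower knockdown library lay far above the higher control library, and libraries of a group differed little. The means were 0.530 ± 0.025 RPKM (SD, n = 2) in control and 8.39 ± 0.247 RPKM (SD, n = 2) in knockdown cells, 15.8-fold higher after knockdown and 16.7-fold higher with median-ratio scaling. On the log2(RPKM + 0.5) scale, which understates changes of low genes, the difference was 3.11 with a standard error (SE) of 0.18. CLIC3 passed the minimum mean of 1 RPKM for the fit only through the knockdown group, since its control mean lay below it. Over the alternative settings, including leaving out each library, the log2 difference of CLIC3 ranged from 2.62 to 3.75. CLIC3 thus moved from above 45.5% of detected genes in control to above 84.2% of them in knockdown libraries.

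The depth behind the CLIC3 values can be read from their steps. The smallest whole numbers that match are 29 and 31 reads in control cells and 329 and 343 reads in knockdown cells. They imply a transcript length of 1351 bases. With the GENCODE 29 exon length of 1177 bases, the estimates are 25.3 and 27.0 reads in control cells and 287 and 299 reads in knockdown cells. Summed by group, the smallest whole numbers give 60 reads (95% exact Poisson interval 45.8 to 77.2) against 672 reads (622 to 725), an interval that covers counting error only. The estimated reads of all genes together were fewer in the knockdown libraries.

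CLIC4, which enters the nucleus in response to TGF-beta in other cells and takes part in lumen formation in endothelium, was the family's most abundant member among those found. Its level was 58.0 and 67.2 RPKM in control cells and 66.0 and 71.6 RPKM in knockdown cells. These groups overlapped. The ratio of means was 1.10 and the log2 difference 0.14 (SE 0.17). With median-ratio scaling CLIC4 was 60.5 and 60.9 RPKM in control cells and 71.4 and 70.0 RPKM in knockdown cells. In that setting the groups did not overlap, the ratio was 1.16 and the log2 difference 0.22 (SE 0.02). CLIC4 stood above 98.8% of detected genes in control cells and 99.0% in knockdown cells.

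CLIC5, an actin-associated member found with radixin at stereocilia of hair cells, was 0.353 and 0.416 RPKM in control cells and 0.565 and 0.476 RPKM in knockdown cells. The knockdown libraries were both above the controls, by a ratio of means of 1.35, from 45 and 53 against 51 and 43 reads or a common multiple of these. At the smallest numbers CLIC5 had 98 reads in control cells (95% exact Poisson interval 79.6 to 119) and 94 in knockdown cells (76.0 to 115), at unequal depth. The multiple nearest the GENCODE 29 exon length of 9395 bases was 3, which gives 135 and 159 reads in control cells. In knockdown cells it gives 153 and 129 reads. No interval was computed at that multiple, and intervals at the smallest numbers are relatively wider. Whether the ratio of 1.35 exceeds counting error was not tested. CLIC2, which binds ryanodine receptors, was 0.101 and 0.118 RPKM in control cells and 0.119 and 0.190 RPKM in knockdown cells. The groups of CLIC2 were barely apart, and its reads numbered 12 and 14 in control cells and 10 and 16 in knockdown cells. Summed by group these are 26 and 26 reads, at unequal depth, each with an exact Poisson interval of 17.0 to 38.1, so no difference was detectable at this depth. Neither CLIC2 nor CLIC5 reached the mean of 1 RPKM required for the fit.

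**Figure D1:**
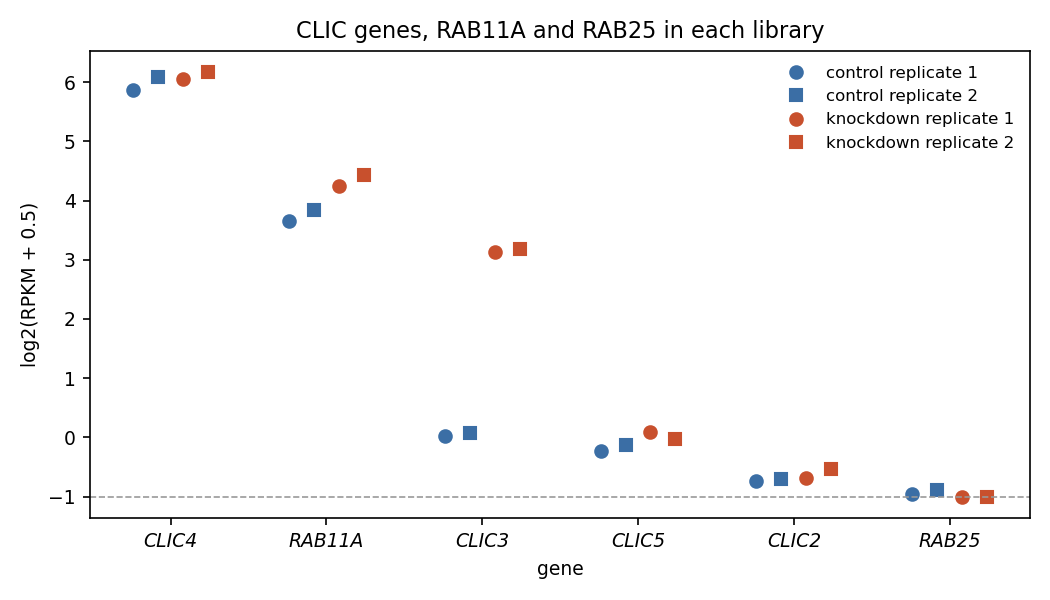
Level of each of the 6 genes found as log2(RPKM + 0.5) (vertical axis), 1 point per library, with control in blue, knockdown in orange, circles for replicate 1 and squares for replicate 2; the dashed line is a value of 0 RPKM. CLIC3 goes from 0.512 and 0.548 RPKM to 8.21 and 8.56 RPKM, CLIC4 lies between 58.0 and 71.6 RPKM in all libraries, and RAB25 lies on or near the line.

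Within a library the balance between the CLIC genes does not depend on how libraries are scaled. CLIC3 made up 0.869% and 0.802% of the summed RPKM of CLIC2 to CLIC5 in control cells and 10.97% and 10.6% in knockdown cells. CLIC4 made up 98.4% in both control libraries, and its share was 88.1% and 88.6% after knockdown. The level of CLIC4 was 113 and 123 times that of CLIC3 in control cells and 8.03 and 8.36 times in knockdown cells. The total of the 4 genes was 59.0 and 68.3 RPKM in control cells and 74.9 and 80.8 RPKM in knockdown cells. CLIC4 thus remained the main CLIC transcript among those found in every library, with CLIC3 next.

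RAB25, which is typical of epithelial cells and is the recycling GTPase tied to CLIC3, was nearly undetected. It was 0.0141 and 0.0424 RPKM in control cells and 0 and 0 RPKM in knockdown cells, which correspond to 1, 3, 0 and 0 reads. A count of 0 allows up to 3 reads, or 0.0599 RPKM in a knockdown library, so a difference was not detectable at this depth and no fold is given. No RAB25 read was found in the libraries with the most CLIC3, but with so few reads nothing is read from this.

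RAB11A, the ubiquitous relative of RAB25, was 12.1 and 13.8 RPKM in control cells and 18.5 and 21.1 RPKM in knockdown cells. Both knockdown libraries lay above both controls. The means were 12.9 ± 1.23 RPKM (SD, n = 2) and 19.8 ± 1.87 RPKM (SD, n = 2), a ratio of 1.53, or 1.62 with median-ratio scaling. The log2 difference was 0.59 (SE 0.18), and with any 1 of the 4 libraries left out it lay between 0.50 and 0.69. Both knockdown libraries of CLIC3 and RAB11A lay above the controls, as they did for 28.0% of the 13627 genes with a mean of at least 1 RPKM, while for 38.8% both lay below. Since the genes were chosen from this contrast, nothing is read from that count.

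The other genes of the route were taken from 3 lists of known members, compiled with earlier results of these data known. Of all 13627 genes tested, 36.4% were called in either direction, 14.7% higher and 21.8% lower (limma, Benjamini-Hochberg adjusted p under 0.05). With median-ratio scaling 61.0% were called, 31.1% higher and 30.0% lower. The first list holds the RAB11 recycling machinery, with GTPases, effectors, motors, sorting nexins and the exocyst. Of 42 listed genes 41 were found and 38 tested, of which 7 rose, 4 fell and 27 did not pass, against 14.7% higher and 21.8% lower over all genes. In shares of the list these are 18.4% and 10.5%. The median log2 difference was 0.09, beside -0.07 over all tested genes. With median-ratio scaling 18 rose and 9 fell, against 31.1% and 30.0% of all genes, with a median of 0.15 beside 0.00.

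RAB11FIP1, the RAB-coupling protein that links RAB11 to integrin and growth factor receptor recycling, rose most in this list. It was 1.62 and 1.86 RPKM in control cells and 6.55 and 7.21 RPKM in knockdown cells, 3.95-fold higher, with a log2 difference of 1.72 (SE 0.18, limma, Benjamini-Hochberg adjusted p = 2.86e-20). It passed in all 10 alternatives that could test it, whereas without the filter on low genes no other called gene named from the lists passed except MMP14 and ITGA2. The tubular endosome protein SNX4 was 4.70 and 5.75 RPKM in control cells and 9.82 and 11.5 RPKM in knockdown cells, 2.04-fold higher (limma, Benjamini-Hochberg adjusted p = 5.28e-07). Lesser rises were those of the transferrin receptor TFRC, a classic cargo of recycling endosomes, of the RAB11 effector WDR44 and of the membrane-shaping ATPase EHD1. TFRC was 55.2 and 63.8 against 92.8 and 100.4 RPKM, 1.62-fold higher. WDR44 was 1.61-fold higher and EHD1 1.495-fold higher, from 45.7 and 54.2 to 70.4 and 78.9 RPKM. With median-ratio scaling the log2 differences were 0.78 (SE 0.02) for TFRC, 0.72 (SE 0.04) for WDR44 and 0.66 (SE 0.02) for EHD1. These last 3 rises were lost with some libraries left out: without control 1, knockdown 1 or knockdown 2 for TFRC (limma, Benjamini-Hochberg adjusted p from 0.0793 to 0.169) and WDR44 (0.0642 to 0.225), and without any 1 library for EHD1 (0.0611 to 0.326).

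RAB11B, the close relative of RAB11A, was lower in knockdown cells. It was 39.95 and 44.3 RPKM in control cells and 24.6 and 27.5 RPKM in knockdown cells, 1.62-fold lower, with a log2 difference of -0.68 (SE 0.17, limma, Benjamini-Hochberg adjusted p = 0.00051). The groups did not overlap, but the call was lost without control 2, knockdown 1 or knockdown 2, with limma's Benjamini-Hochberg adjusted p from 0.0837 to 0.209. With median-ratio scaling, which was not combined with leaving out libraries, RAB11B had a log2 difference of -0.60 (SE 0.03). Within a library the ratio of RAB11A to RAB11B was 0.302 and 0.311 in control cells and 0.750 and 0.769 in knockdown cells, a ratio that library scaling cannot move. RAB11B thus exceeded RAB11A in all 4 libraries, by less in the knockdown libraries. The sum of both was 52.0 and 58.2 RPKM in control cells and 43.1 and 48.6 RPKM in knockdown cells. The other genes that fell were ZFYVE27 (protrudin), at 1.51-fold lower, and the exocyst subunits EXOC4 and EXOC2, at 1.45-fold and 1.37-fold lower. Each of these 3 calls was lost when any 1 library was left out (limma, Benjamini-Hochberg adjusted p from 0.0522 to 0.472 over the 3 genes). Of 9 exocyst subunits tested, 2 fell, 7 did not pass and none rose in the limma fit, where 21.8% of all genes fell. With median-ratio scaling 5 rose and 2 fell, where 31.1% of all genes rose and 30.0% fell.

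**Figure D2:**
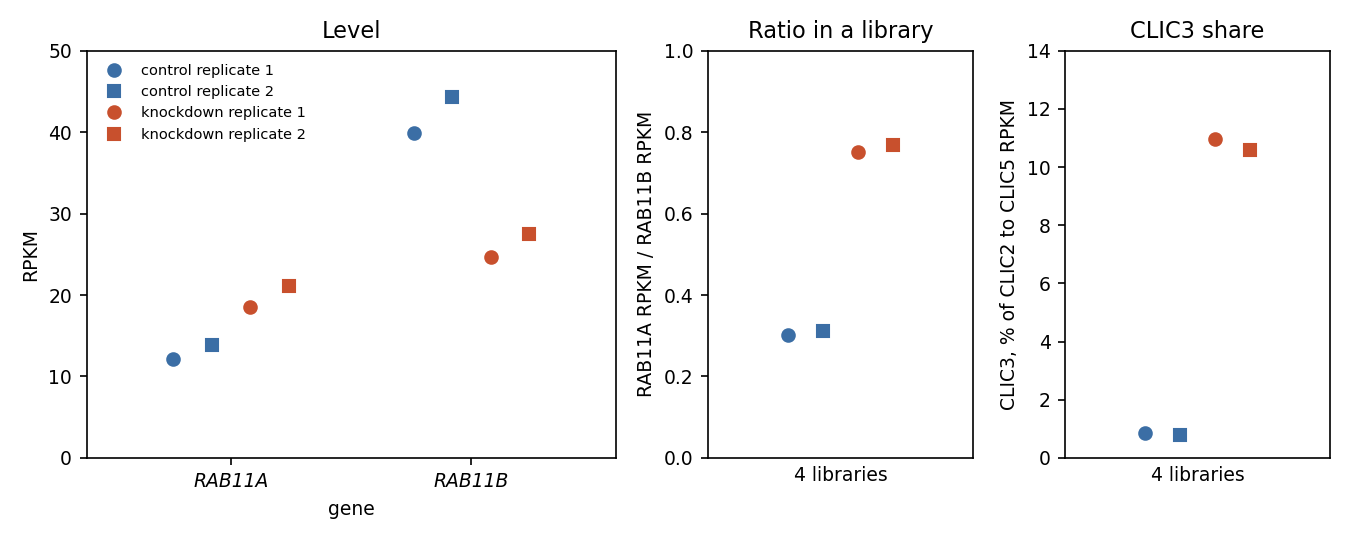
Left, RPKM of RAB11A and RAB11B; middle, RPKM of RAB11A divided by that of RAB11B in the same library; right, CLIC3 as a percent of the summed RPKM of CLIC2 to CLIC5, with 1 point per library (control blue, knockdown orange). The RAB11A to RAB11B ratio goes from 0.302 and 0.311 to 0.750 and 0.769, and the CLIC3 share from 0.869% and 0.802% to 10.97% and 10.6%.

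The second list holds integrins and the genes of their uptake, traffic and protease partners. All 55 listed genes were found and 44 tested, of which 5 rose, 8 fell and 31 did not pass, or 11.4% and 18.2% of the list against 14.7% and 21.8% of all genes. The median log2 difference was 0.02, and with median-ratio scaling 23 rose and 14 fell, with a median of 0.10, beside 31.1% and 30.0% of all genes and a median of 0.00. The balance of calls in this list thus turned from lower to higher with the scaling. Of the integrin subunits 10 were tested, of which 1 rose and 3 fell, and with median-ratio scaling 5 rose and 3 fell.

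ITGAV, the αv chain that pairs with several β chains, was the integrin that rose. It was 7.62 and 8.60 RPKM in control cells and 17.0 and 19.2 RPKM in knockdown cells, 2.24-fold higher, with a log2 difference of 1.11 (SE 0.18, limma, Benjamini-Hochberg adjusted p = 4.25e-09), and 203 bases of its exons overlap a gene on the opposite strand. ITGA2, the collagen receptor chain, fell from 7.40 and 8.56 RPKM to 2.65 and 2.83 RPKM, 2.91-fold lower, with a log2 difference of -1.38 (SE 0.18, limma, Benjamini-Hochberg adjusted p = 1.38e-13). The chains of the CLIC3 cargo α5β1 did not pass. ITGA5 was 10.8 and 13.1 RPKM in control cells and 10.7 and 11.6 RPKM in knockdown cells, with overlapping groups and a log2 difference of -0.09 (SE 0.18, limma, Benjamini-Hochberg adjusted p = 0.727). Without control 2 the log2 difference of ITGA5 was 0.05. ITGB1 was 88.6 and 103 against 113 and 124 RPKM, with groups that did not overlap and a log2 difference of 0.30 (SE 0.17, limma, Benjamini-Hochberg adjusted p = 0.150). With median-ratio scaling ITGB1 was called higher, with a log2 difference of 0.39 (limma, Benjamini-Hochberg adjusted p = 0.000453).

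MMP14, the other recycled partner of CLIC3, was the gene of this list that fell most. It was 60.3 and 68.1 RPKM in control cells and 12.8 and 13.5 RPKM in knockdown cells, 4.88-fold lower, with a log2 difference of -2.24 (SE 0.17, limma, Benjamini-Hochberg adjusted p = 2.32e-35). Together with ITGA2, MMP14 passed in all 11 alternatives. The ARF GTPase-activating protein ASAP1 fell 2.06-fold and the filopodial motor MYO10 fell 1.84-fold. ARF6, which controls a rapid endosomal route, was 53.8 and 64.8 RPKM in control cells and 34.0 and 39.1 RPKM in knockdown cells, 1.62-fold lower. Of these, MYO10 was not called without knockdown 1 (limma, Benjamini-Hochberg adjusted p = 0.0622), and ARF6 was not called without control 2, knockdown 1 or knockdown 2 (0.0722 to 0.229). Among genes that rose, the clathrin adaptor DAB2 was 4.01 and 4.87 RPKM in control cells and 7.83 and 9.09 RPKM in knockdown cells, 1.91-fold higher (limma, Benjamini-Hochberg adjusted p = 8.77e-06). Caveolin CAV1 was 1.51-fold, clathrin heavy chain CLTC 1.41-fold and the secretory GTPase RAB1A 1.37-fold higher, and each of these 3 calls was lost when any 1 library was left out (limma, Benjamini-Hochberg adjusted p from 0.0586 to 0.488 over the 3 genes). Exons overlapped those of a gene on the opposite strand by 757 bases for RAB1A, 244 bases for CLTC, 48 bases for ITGA5 and 42 bases for ITGB1, and of a gene on the same strand by 119 bases for DAB2, so reads there could not be assigned with certainty.

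**Figure D3:**
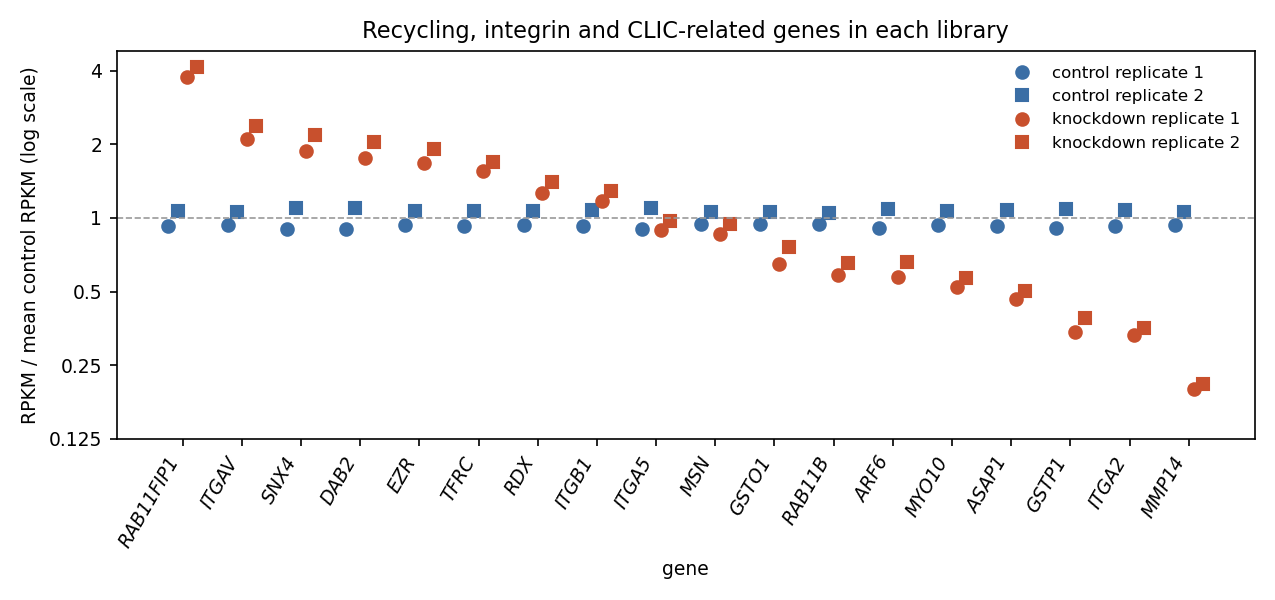
RPKM of 18 listed genes in each library divided by the gene's mean over the control libraries (log axis, dashed line at 1), 1 point per library with control in blue and knockdown in orange. Both knockdown points of RAB11FIP1 and ITGAV lie above the controls, those of RAB11B, ITGA2 and MMP14 lie below, and those of ITGA5 overlap the controls.

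The third list holds relatives and partners of CLIC proteins: glutathione S-transferases, chloride channels and transporters, the ezrin, radixin and moesin (ERM) linkers and binding partners. All 49 listed genes were found and 37 tested, of which 5 rose, 8 fell and 24 did not pass, or 13.5% and 21.6% of the list, shares near the 14.7% and 21.8% of all genes. The median was -0.01. With median-ratio scaling 14 rose and 11 fell, with a median of 0.06, beside 31.1% and 30.0% of all genes and a median of 0.00, so the balance of calls and the sign of the median turned.

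Ezrin (EZR), which ties CLIC proteins at the cell cortex to actin, rose from 62.6 and 71.6 RPKM to 113 and 129 RPKM, 1.80-fold higher, with a log2 difference of 0.84 (SE 0.17, limma, Benjamini-Hochberg adjusted p = 7.44e-06). The call was lost without knockdown 2 (limma, Benjamini-Hochberg adjusted p = 0.0917), and 24 bases of the EZR exons overlap an antisense gene, whose reads could not be told apart if strand was not used. The other linkers did not pass: moesin (MSN) had a log2 difference of -0.15 (SE 0.17) and radixin (RDX) of 0.38 (SE 0.18). With median-ratio scaling RDX was called higher, with a log2 difference of 0.45, and MSN was called lower, with a log2 difference of -0.07.

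Glutathione S-transferases, the structural relatives of the soluble CLIC form, had 5 members tested, of which 3 fell, 2 did not pass and none rose, where 21.8% of all genes fell and 14.7% rose. With median-ratio scaling 3 of them fell and 0 rose, where 30.0% of all genes fell and 31.1% rose. GSTP1, a detoxifying enzyme, fell from 38.1 and 45.5 RPKM to 14.2 and 16.2 RPKM, 2.74-fold lower (limma, Benjamini-Hochberg adjusted p = 1.54e-14). GSTA4 was 2.04 and 2.37 RPKM in control cells and 0.839 and 0.886 RPKM in knockdown cells, 2.55-fold lower. It passed the minimum mean of 1 RPKM only through the control group. GSTO1, of the omega class closest in fold to CLIC proteins, was 33.6 and 37.8 against 23.1 and 27.3 RPKM, 1.42-fold lower (limma, Benjamini-Hochberg adjusted p = 0.0151), a call lost when any 1 library was left out (0.0951 to 0.504). The volume-regulated anion channel subunit LRRC8C was 2.94-fold lower, the motor MYO6 1.77-fold lower and the membrane protein ANO10 1.68-fold lower. The MYO6 call was lost without control 2 or knockdown 1 (limma, Benjamini-Hochberg adjusted p of 0.0517 to 0.0708), and the ANO10 call without control 2, knockdown 1 or knockdown 2 (0.0589 to 0.127). Of 6 CLCN genes tested 2 rose, the endosomal exchangers CLCN4, 1.65-fold, and CLCN3, 1.51-fold higher. These compare with 14.7% higher over all genes, and with median-ratio scaling 4 of the 6 rose, where 31.1% of all genes did. The scaffold AKAP9 was 1.68-fold and the transcription factor HIVEP2 1.67-fold higher. The calls of CLCN4 and HIVEP2 were lost without control 1, knockdown 1 or knockdown 2, and those of CLCN3 and AKAP9 without any 1 library (limma, Benjamini-Hochberg adjusted p from 0.0539 to 0.280 over the 4 genes). Genes on the opposite strand overlapped 170 exon bases of ANO10 and, in 2 stretches, 254 and 203 exon bases of HIVEP2.

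**Figure D4:**
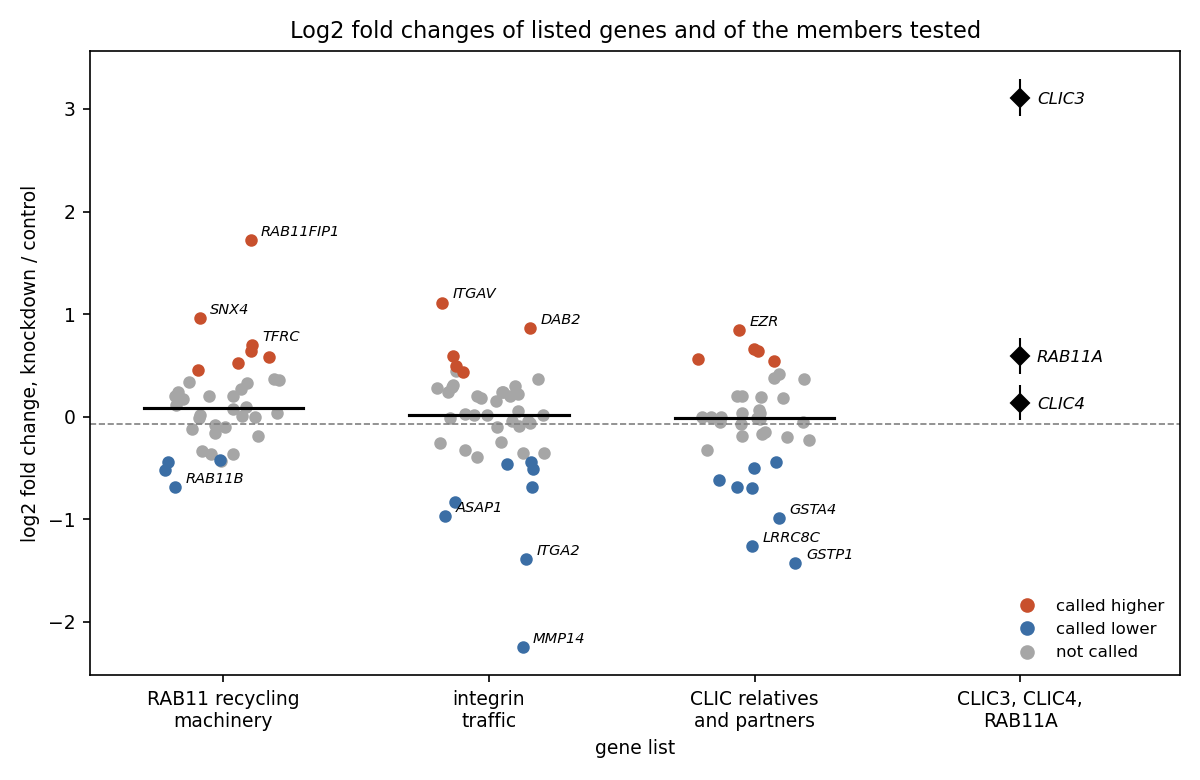
Log2 difference (knockdown minus control) of every tested gene of the 3 lists, 1 point per gene (orange called higher, blue called lower, grey not called), with black lines at the list medians of 0.09, 0.02 and -0.01 and a dashed line at -0.07, the median of all tested genes. Diamonds show CLIC3, CLIC4 and RAB11A with bars of 1 SE; RAB11FIP1 at 1.72 and MMP14 at -2.24 are the farthest points of the lists.

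Values of the nearest protein-coding genes found on either side of the members in GENCODE 29, without overlap, are given next. This annotation is of another build than the deposited values and was used here only for order and spacing. PAXX, 651 bases from CLIC3 on the other strand, was 24.0 and 29.01 RPKM in control cells and 16.0 and 16.3 RPKM in knockdown cells, a ratio of 0.609, and ABCA2 on the other side had a ratio of 0.773. The neighbours of RAB25, LAMTOR2 and MEX3A, had ratios of 0.747 and 0.396. MEX3A was low, at 0.565 and 0.985 RPKM in control cells and 0.327 and 0.286 RPKM in knockdown cells. Beside RAB11A, SLC24A1 was 0.836 and 0.938 RPKM in control cells and 0.390 and 0.427 RPKM in knockdown cells, a ratio of 0.460. MEGF11, on the other side, was at most 0.0369 RPKM in any library. RUNX3, beside CLIC4, was 0.990 and 0.990 RPKM in control cells and 0.245 and 0.144 RPKM in knockdown cells. SRRM1, on the other side of CLIC4, had a ratio of 0.794. Beside CLIC5, RUNX2 and ENPP4 had ratios of 0.8175 and 0.7115. The neighbours of CLIC2, RAB39B and TMLHE, were at most 0.00681 RPKM in any library. For 38.8% of the 13627 genes with a mean of at least 1 RPKM, both knockdown libraries lay below both controls. A regional effect was not tested. No exon of CLIC3, CLIC4 or RAB11A overlapped another gene of the table.

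The tested genes most like each member were found by the root mean square difference of centred log2(RPKM + 0.5) over 4 libraries. For CLIC3 these were DIO2 (0.0175), MYL1 (0.0490) and CALCR (0.112). DIO2 was 0.121 and 0.121 RPKM in control cells and 4.75 and 4.96 RPKM in knockdown cells. For RAB11A they were SCARB2 (0.00631), ENSG00000225485 (0.00657) and TM9SF2 (0.00660), and for CLIC4 they were BCAT1 (0.00395), CTNNB1 (0.00404) and OSBPL8 (0.00455). The log2 differences of the 3 genes most like CLIC3 were 3.11, 3.15 and 3.30. Choosing these genes by likeness over the same 4 libraries sets these differences near that of CLIC3, so nothing is read from them. The 3 genes were at most 0.142 RPKM in control cells and 4.65 to 6.22 RPKM in knockdown cells. Their ratios of mean RPKM were therefore larger than the 15.8 of CLIC3, and the likeness holds only with 0.5 added. Each passed the minimum mean of 1 RPKM only through the knockdown group.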

How the data were processed

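RNA of 4 libraries was analysed. The authors deposited RPKM values in 1 table with a column per library, and 0 columns of values went unused. The submitters' processing notes name the aligner Bowtie 0.12.7 and the build hg19. Counter, annotation, strand use and multi-mapping were not given in the sources used here. A symbol table named 32172 identifiers and GENCODE 29 named 136, with 4217 left without a name. Genes of chromosomes 20, 21 and 22, CLIC1 and MICALL1 were not analysed here.

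Values were analysed as log2(RPKM + 0.5) for 13627 genes with a mean of at least 1 RPKM, with limma 3.58.1 in R 4.3.3 (1 term for group, trended empirical Bayes variances, Benjamini-Hochberg adjustment over all tested genes, threshold 0.05). The fit was tested on simulated data. Python 3.11.15, pandas 2.3.3, numpy 2.4.6 and matplotlib 3.10.9 made summaries and figures. Ratios are ratios of mean RPKM.

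Depth was read from the steps of low values: with the read totals of the report, 82.7% to 83.1% of low values were whole within 0.1 read. Estimated reads ranged from 16.5 M to 26.6 M a library, used for precision only. The mean chi-square per gene was 1.33 between the control and 1.31 between the knockdown libraries, against 81.4 to 90.0 between groups. The values within groups lie little above what read counting alone gives, so the p-values may not cover variation between cultures. All libraries were kept as separate samples.

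The members and lists were chosen with earlier results of these data known. Named genes were the members, HNRNPM, up to 5 called genes with the largest and smallest log2 difference per list where groups did not overlap, RAB11B, RAB11FIP1, ITGB1, ITGA5, ITGAV, MMP14, GSTO1, EZR, MSN and RDX, neighbouring genes and the 3 most alike genes. Alternatives, each changed alone, were other pseudocounts (0.1, 1), filters (none, 5 RPKM), median-ratio scaling, no variance trend, a replicate block and leaving out each library. Libraries were thus left out only of values without median-ratio scaling, in which replicate 2 was higher than replicate 1 for most genes. Promoter sequences are from RefSeq, build GRCh38.p14.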

Additional observations from a re-analysis of the deposited data

How the results depend on the processing

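Groups of 2 libraries leave precision to a variance shared over genes. A library left out leaves its group with 1, which is assumed to vary like the other group. Without the variance trend RAB11FIP1 and MMP14 both had an SE of 0.197. With the replicate block both had a limma, Benjamini-Hochberg adjusted p of 0.00355, so the very small p-values above depend on the variance model. Among the named genes ITGA5, which was not called, reversed its direction without control 2: with 1 library left out its log2 difference ranged from -0.228 to 0.0483. For the members, given as descriptions, the log2 difference of CLIC4 was 0.22 with median-ratio scaling, and that of RAB11A was 0.59 without a filter and 0.50 to 0.69 with any 1 library left out.

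Counts of calls depended on the settings, and the balance of calls turned with median-ratio scaling over all genes and in the integrin and CLIC relatives lists. Over all genes 2000 were called higher and 2964 lower, with 4235 and 4083 after median-ratio scaling, 1047 and 1321 with a mean of at least 5 RPKM and 262 and 255 without a filter. Leaving out each library gave 759 to 1158 higher and 1057 to 2007 lower. In the recycling list, higher and lower calls (7 and 4) became 1 and 0 without a filter and 18 and 9 with scaling, and lower calls were 2 with a mean of at least 5 RPKM and 2 with no variance trend. In the integrin list (5 and 8) they became 0 and 2 without a filter and 23 and 14 with scaling. In the CLIC relatives list (5 and 8) they became 0 and 0 without a filter and 2 and 5 with a mean of at least 5 RPKM, and 14 and 11 with scaling. Over the libraries left out, higher and lower calls ranged from 2 to 5 and 0 to 1 in the recycling list, 2 to 2 and 3 to 5 in the integrin list and 0 to 3 and 3 to 6 in the CLIC relatives list. The cause of these shifts was not tested.

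The replicate numbers were not taken to pair the libraries: the deviations of same-numbered libraries had a correlation of 0.03 across 13627 genes. A fit with the replicate number as a block called 3109 genes higher and 4318 lower. Its calls were 13 higher and 7 lower in the recycling list, 17 higher and 13 lower in the integrin list and 10 higher and 11 lower in the CLIC relatives list.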
